A study of Homo sapiens with 8 samples.

Results

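The protein-coding genes of the cytosolic ribosome were examined as one group: genes whose symbols begin with RPL or RPS followed by a number and at most 1 letter, together with RPLP0, RPLP1, RPLP2, RPSA and FAU. Of the 78932 genes in the count tables, 84 symbols met that description, and the 82 annotated as protein-coding were kept. They comprised 33 genes of the small subunit (40S) and 49 genes of the large subunit (60S). No expression value was used to choose them.

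All 8 libraries came from HCT116, a human colorectal carcinoma line, in which NUDT21 carries a degradation tag (dTAG). Of these, 4 were from cells given the vehicle DMSO with JTE-607 and 4 were from cells given dTAGV1 with JTE-607. The dTAGV1 molecule brings a dTAG-fused protein to an E3 ubiquitin ligase for destruction. NUDT21 is the small subunit of cleavage factor Im, which takes part in the choice of polyadenylation sites, and JTE-607 is an inhibitor of the endonuclease CPSF3 that cuts pre-messenger RNA at those sites. Both groups therefore received JTE-607, and the comparison is of dTAGV1 with DMSO in its presence. The labels give neither doses, times nor whether the tagged line is 1 clone, and they do not say that the replicates were separate cultures, so p-values here measure only the spread between these libraries. Reads were taken from the 3′ ends of polyadenylated RNA, and 8649238 to 9977205 reads per library gave 3447842 to 4291256 counts on the gene strand. Levels are given as counts per 1000000 counts on tested genes, with library sizes scaled by TMM factors (CPM). NUDT21 itself stood at 28.4 to 35.0 CPM in the DMSO libraries and at 4.42 to 10.2 CPM in the dTAGV1 libraries. Its log2 fold change was -1.95 (adjusted p = 1.36e-09, edgeR quasi-likelihood test). All 7 epithelial markers examined were detected, with a summed level of 1690 to 1979 CPM under DMSO and 1357 to 1464 CPM under dTAGV1. Of the 11 markers of fibroblasts, endothelium and leukocytes, COL1A1 reached 11.2 to 19.9 CPM and the other 10 stayed at or below 0.547 CPM. The dTAGV1 libraries also differed among themselves: the share of unmapped reads was 30.3%, 29.9%, 24.9% and 20.4% in replicates 1 to 4, against 27.7% to 28.9% in the DMSO libraries.

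Each cytosolic ribosome holds 1 copy of nearly every ribosomal protein, so cells make these proteins in balanced amounts, and unassembled copies are degraded. Most of their messenger RNAs begin with a C followed by an unbroken run of C and T bases, the 5′ terminal oligopyrimidine (TOP) motif, through which mTOR signalling and the RNA-binding protein LARP1 control their translation and stability together. In growing cancer cells such as HCT116 these transcripts are among the most abundant, and many ribosomal protein genes also carry small nucleolar RNAs within their introns.

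The start of the messenger RNA is given for the genes on which the results turn, because the TOP motif is the sequence feature that the group shares. The windows run from 30 bases before to 20 bases from the annotated start on the gene strand, are credited to RefSeq on GRCh38.p14, and carry in capitals the run of C and T that begins at the start. The first 5 are genes with large increases, RPLP2 and RPLP0 form the stalk, RPL22 and RPL36A are the genes that fell, RPL35A did not pass the test, and RPS27L is a divergent paralog without such a run.
RPS19 (chr19:41860225-41860274, plus strand): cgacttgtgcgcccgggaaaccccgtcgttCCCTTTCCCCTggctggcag
RPS27 (chr1:153990732-153990781, plus strand): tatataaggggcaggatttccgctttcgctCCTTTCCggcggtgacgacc
RPSA (chr3:39406690-39406739, plus strand): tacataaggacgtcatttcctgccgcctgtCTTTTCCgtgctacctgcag
RPL10 (chrX:154398347-154398396, plus strand): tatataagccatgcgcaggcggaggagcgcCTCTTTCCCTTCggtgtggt
RPL21 (chr13:27251528-27251577, plus strand): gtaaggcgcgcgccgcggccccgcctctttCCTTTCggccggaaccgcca
RPLP2 (chr11:809937-809986, plus strand): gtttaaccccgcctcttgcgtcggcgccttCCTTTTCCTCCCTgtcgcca
RPLP0 (chr12:120201092-120201141, minus strand): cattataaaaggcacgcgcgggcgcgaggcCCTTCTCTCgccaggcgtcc
RPL22 (chr1:6199576-6199625, minus strand): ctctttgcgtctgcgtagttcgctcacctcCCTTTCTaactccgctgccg
RPL36A (chrX:101390981-101391030, plus strand): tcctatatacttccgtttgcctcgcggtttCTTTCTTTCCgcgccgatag
RPL35A (chr3:197950160-197950209, plus strand): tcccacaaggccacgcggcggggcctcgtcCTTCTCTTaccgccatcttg
RPS27L (chr15:63157458-63157507, minus strand): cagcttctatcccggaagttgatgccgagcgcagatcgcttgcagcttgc
RefSeq starts were matched for 65 of the 82 genes. A start was called TOP-like when a C was followed by at least 4 bases that were each C or T, read on the gene strand. For a gene with several listed starts, any TOP-like start was enough. By that definition 47 of the 65 ribosomal protein genes (72.3%) had a TOP-like start, against 1404 of 27305 genes (5.14%) in the whole RefSeq table. RPL22 and RPL36A, which fell, carried the motif, as did RPS19 and RPS27, which rose.

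Ribosomal protein transcripts made up a larger share of the library after dTAGV1. In order of replicate number, they held 7.16%, 6.84%, 7.13% and 7.13% of gene-strand counts under DMSO. Under dTAGV1 the corresponding shares were 7.80%, 7.67%, 8.38% and 8.44%. The groups did not overlap, and within the dTAGV1 group replicates 3 and 4 were the higher pair. The mean share went from 7.06% ± 0.152 to 8.07% ± 0.395 (SD, n = 4 libraries per group), which is 1.01 percentage points more. Small-subunit genes went from 3.07% ± 0.0760 to 3.54% ± 0.170, and large-subunit genes from 3.99% ± 0.0933 to 4.54% ± 0.228 (SD, n = 4 each). Shares in bulk RNA are relative: more ribosomal protein RNA and less of other RNA cannot be told apart, nor can a change in the number of cells of a kind and a change in RNA per cell. Transcripts of the mitochondrial genome also took a larger share, 8.34% ± 0.265 against 9.88% ± 0.490 (SD, n = 4 each). With those counts left out of the total, the ribosomal protein share was 7.71% under DMSO and 8.96% under dTAGV1.

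**Figure D1:**
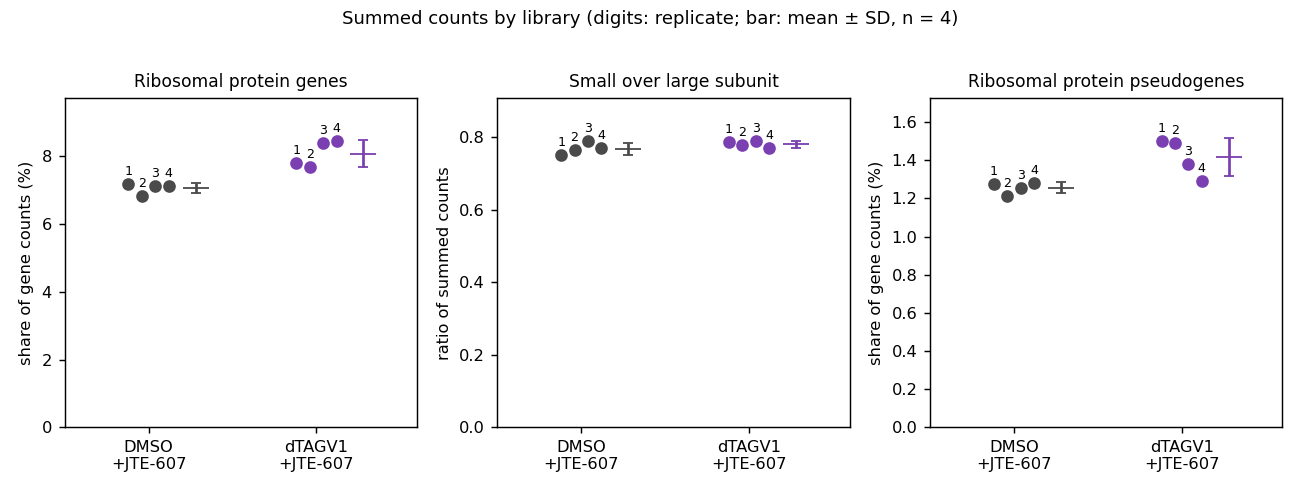
Share of gene-strand counts on ribosomal protein genes (left, percent), ratio of summed small- to large-subunit counts (middle) and share on ribosomal protein pseudogenes (right, percent) in each of the 8 libraries; points are libraries numbered by replicate and bars are the mean ± SD (n = 4). The ribosomal protein share lies at 6.84% to 7.16% under DMSO and 7.67% to 8.44% under dTAGV1, while the small-to-large ratios of the groups overlap.

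Gene by gene, the increase was small and widely shared. Of the 77 ribosomal protein genes with enough counts to test, 59 were higher after dTAGV1, 2 were lower (RPL22 and RPL36A) and 16 did not pass the test (edgeR quasi-likelihood test, adjusted p under 0.05, Benjamini-Hochberg over all 12618 genes tested). Across all genes tested, 57.9% were called, 29.4% as higher and 28.5% as lower. The median log2 fold change of the 77 genes was 0.26, with quartiles of 0.19 and 0.35, beside a median of 0.01 and quartiles of -0.43 and 0.42 over all genes tested. The log2 fold change was positive in 72 of the 77 genes, as it was in 51.1% of all genes. Among ribosomal protein genes, 46 lay between 0.2 and 0.4 on this scale and 5 exceeded 0.5. In 47 genes every dTAGV1 library stood above every DMSO library, and in 2 every dTAGV1 library stood below, whereas the groups were separated in 50.9% of all genes, 25.8% in the upward direction. Abundant genes were called more often: of the 2202 genes that averaged 100 CPM or more, 67.2% were called, 40.6% as higher and 26.6% as lower, with a median log2 fold change of 0.09. All 59 genes that rose were among the 73 ribosomal protein genes of that abundance, and none of those 73 fell. Scaling by library size alone, without TMM factors, left 43 of the 59 increases past the threshold.

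**Figure D2:**
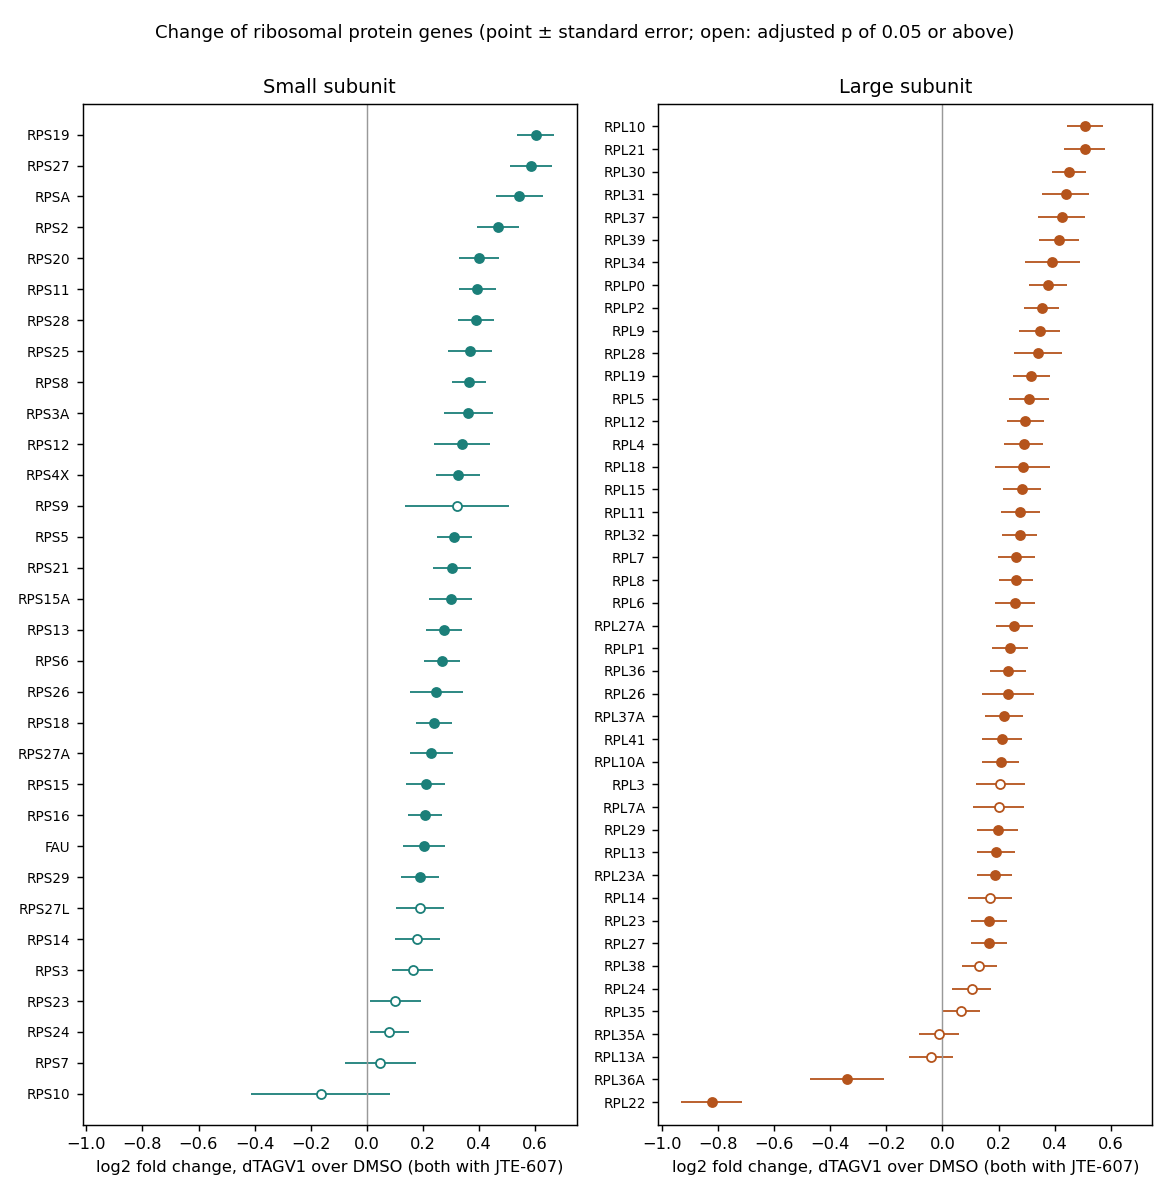
Log2 fold change (dTAGV1 over DMSO, both with JTE-607) of the tested ribosomal protein genes reported here by name, of the small subunit (left) and the large subunit (right), with bars of 1 standard error; filled points have an adjusted p under 0.05. Nearly all points lie between 0 and 0.6, and RPL22 stands lowest at -0.82.

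Most genes of both subunits rose. In the small subunit 24 of 32 tested genes rose and none fell, with a median log2 fold change of 0.29. In the large subunit 35 of 45 rose and 2 fell, with a median of 0.26. The difference between these medians was 0.027. The small-subunit median minus the large-subunit median was also taken within each library, as deviations from the DMSO mean on the log2 scale. It was -0.046 to 0.045 under DMSO and 0.036 to 0.073 under dTAGV1, with overlapping groups. The group means of this within-library value differed by 0.048, and the pooled SD of single libraries was 0.029. The ratio of summed small- to large-subunit counts was, in replicate order, 0.749, 0.766, 0.789 and 0.769 under DMSO and 0.786, 0.778, 0.789 and 0.769 under dTAGV1. These ranges overlapped (0.768 ± 0.0162 and 0.780 ± 0.00880, SD, n = 4 each). When each gene was given equal weight through geometric means, the ratio was 0.867 ± 0.0201 under DMSO and 0.902 ± 0.00936 under dTAGV1 (SD, n = 4 each). Those ranges were separate only narrowly, the highest DMSO library standing at 0.888 and the lowest dTAGV1 library at 0.892. Equal weight lets thinly counted genes such as RPS9, RPS10 and RPL36A, and RPL22, which fell, count as much as abundant ones. Their part in this difference was not tested.

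**Figure D3:**
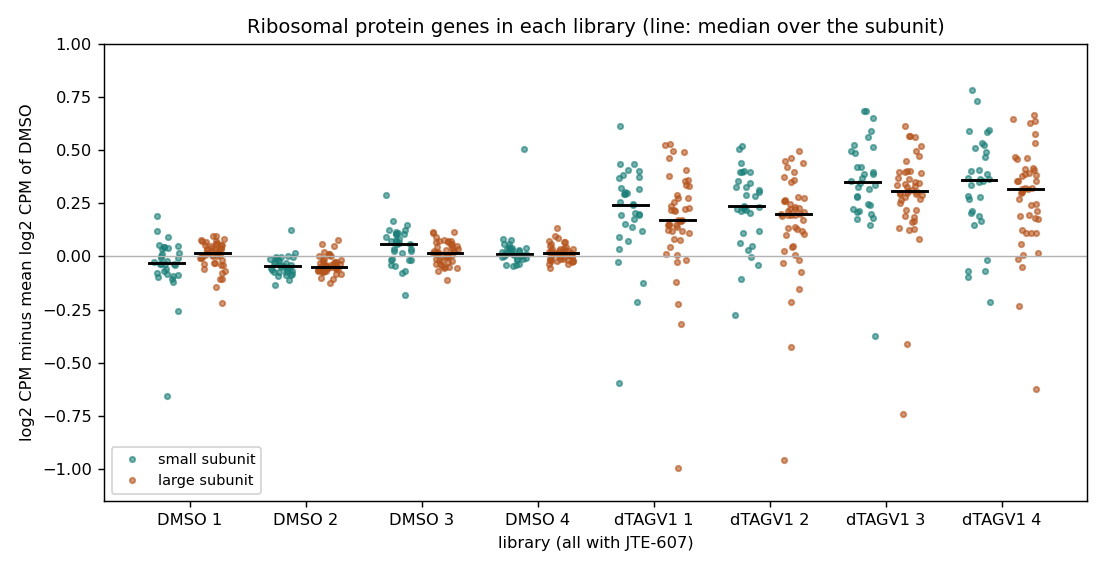
Deviation of each tested ribosomal protein gene from its mean log2 CPM over the DMSO libraries, in each of the 8 libraries, with small-subunit genes in green and large-subunit genes in orange; black lines are medians over the subunit. Both medians sit near 0 in the DMSO libraries, between 0.17 and 0.24 in dTAGV1 replicates 1 and 2, and between 0.31 and 0.36 in replicates 3 and 4.

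The increase was larger in dTAGV1 replicates 3 and 4 than in replicates 1 and 2. The median deviation from the DMSO mean was 0.20, 0.22, 0.33 and 0.32 on the log2 scale in replicates 1 to 4. In 49 of the 77 genes (63.6%) both of replicates 3 and 4 exceeded both of replicates 1 and 2, an order found in 20.9% of all genes tested. The reverse order held for 11 genes (14.3%), among them RPL18, RPL28, RPS27L, RPS14, RPL29 and FAU, against 21.1% of all genes. RPL18 shows this reverse order, with 1069, 949.7, 889.7 and 716 CPM in dTAGV1 replicates 1 to 4 beside 669.8 to 801 CPM under DMSO. RPS7, mutated in Diamond-Blackfan anaemia, had the widest gap in the common direction, with 451, 433, 608 and 675 CPM in dTAGV1 replicates 1 to 4 beside 489 to 550.2 CPM under DMSO. Its first pair of dTAGV1 values lay below every DMSO library and its second pair above, and it did not pass the test (log2 fold change of 0.05, adjusted p = 0.764, edgeR). With dTAGV1 replicates 1 and 2 alone, 47 ribosomal protein genes were higher and 4 lower of 78 tested. With replicates 3 and 4 alone, 63 were higher and 1 lower of 78 tested. Over all genes, these fits called 6757 and 7036 genes in either direction. The part that the unmapped share plays in this order was not tested.

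The largest increases belonged to 4 small-subunit and 2 large-subunit genes. RPS19 (ENSG00000105372, chr19:41859918-41872926), a protein of the 40S head and the one most often mutated in Diamond-Blackfan anaemia, read 1186, 1202, 1337 and 1334 CPM under DMSO and 1935, 1812, 2032 and 1899.8 CPM under dTAGV1, in replicate order as for all genes that follow. The lowest dTAGV1 library was well above the highest DMSO library, and the log2 fold change was 0.60 (SE 0.067, adjusted p = 3.08e-08, edgeR). RPS27 (ENSG00000177954, chr1:153990755-153992155), a zinc-finger protein of the 40S, read 656, 632, 599 and 643 CPM under DMSO and 854, 859, 995 and 1087 CPM under dTAGV1. Its groups were separate, with replicates 3 and 4 the higher dTAGV1 pair (log2 fold change of 0.59, adjusted p = 3.84e-07, edgeR). RPSA (ENSG00000168028, chr3:39406689-39412542), a 40S protein also known as the laminin receptor precursor, read 319.7, 341, 344 and 346 CPM under DMSO and 446, 419, 543 and 559.8 CPM under dTAGV1. It showed the same separation and the same order of dTAGV1 libraries (log2 fold change of 0.54, SE 0.082, adjusted p = 4.30e-06, edgeR).

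RPL10 (ENSG00000147403, chrX:154389955-154409168), which joins the 60S late in its maturation, read 661, 598, 643 and 613 CPM under DMSO and 867, 887, 886 and 937 CPM under dTAGV1. All 4 dTAGV1 libraries were close together and above the DMSO range (log2 fold change of 0.51, adjusted p = 3.01e-07, edgeR). RPL21 (ENSG00000122026, chr13:27251309-27256691), a protein of the 60S, read 563, 553, 531 and 563 CPM under DMSO and 708, 727, 846 and 859.7 CPM under dTAGV1 (log2 fold change of 0.51, adjusted p = 1.54e-06, edgeR). RPS2 (ENSG00000140988, chr16:1962052-1964860), which lies near the messenger RNA entrance of the 40S, read 431, 416, 448 and 455 CPM under DMSO and 566, 532, 659.9 and 661 CPM under dTAGV1 (log2 fold change of 0.47, adjusted p = 8.70e-06, edgeR). In both genes the groups were separate and dTAGV1 replicates 3 and 4 were the highest libraries. RPS2 shares 14.5% of its exon bases with another annotated gene on its strand.

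RPL22 went the other way by more than any of these genes rose. It encodes a protein on the 60S surface that is dispensable for general translation, and it lies at chr1:6185020-6209389 on the minus strand (ENSG00000116251). Its values were 55.5, 68.0, 68.8 and 66.8 CPM under DMSO and 32.3, 33.2, 38.6 and 41.9 CPM under dTAGV1. The highest dTAGV1 library was below the lowest DMSO library, and the mean went from 64.8 ± 6.26 to 36.5 ± 4.52 CPM (SD, n = 4 each). On the log2 scale the change was -0.82 (SE 0.11, adjusted p = 6.25e-07, edgeR), and leaving out any 1 library gave -0.92 to -0.77. The median annotated 3′ untranslated region of RPL22 is 1655 bases, while the median over tested ribosomal protein genes is 75 bases. Over the 10625 tested genes for which a length was available it is 1058.5 bases. These lengths are medians over annotated transcripts and do not show which transcript the cells use. Of the 20 tested ribosomal protein genes with more than 500 bases, 14 rose, 1 fell (RPL22) and 5 did not pass (median log2 fold change of 0.24). Of the 57 with shorter regions, 45 rose, 1 fell and 11 did not pass (median 0.28). Per-gene counts do not tell the polyadenylation sites of a gene apart. RPL22 also shares 4.93% of its exon bases with a gene on the same strand.

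The close paralog RPL22L1, which can take the place of RPL22 in the ribosome, also fell. It read 372, 347, 368 and 351 CPM under DMSO and 230.4, 245, 273 and 289 CPM under dTAGV1, again without overlap (log2 fold change of -0.47, adjusted p = 8.49e-06, edgeR). RPL36A (ENSG00000241343, chrX:101390824-101396154), a 60S protein near the exit site for transfer RNA, had low counts, at 24.6, 25.6, 24.3 and 24.5 CPM under DMSO and 19.8, 18.4, 18.6 and 21.0 CPM under dTAGV1. Its groups were separate (log2 fold change of -0.34, SE 0.13, adjusted p = 0.0301, edgeR), but the value is uncertain, since pseudogenes named for it held far more counts. Whether reads of RPL36A were assigned to those copies was not tested. Counts on pseudogenes named for RPL36A were 4825% of its own, RPL36AP37 alone holding 1044 CPM under DMSO and 1068 CPM under dTAGV1. With those counts added, the log2 fold change of RPL36A was 0.03 (adjusted p = 0.791, edgeR). Without DMSO replicate 2, dTAGV1 replicate 2 or dTAGV1 replicate 3 its adjusted p was 0.0643, 0.0520 and 0.0615 (edgeR), so the call rests on each of those libraries, and DESeq2 gave 0.0602. RPL36A also shares 8.40% of its exon bases with another annotated gene on its strand.

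**Figure D4:**
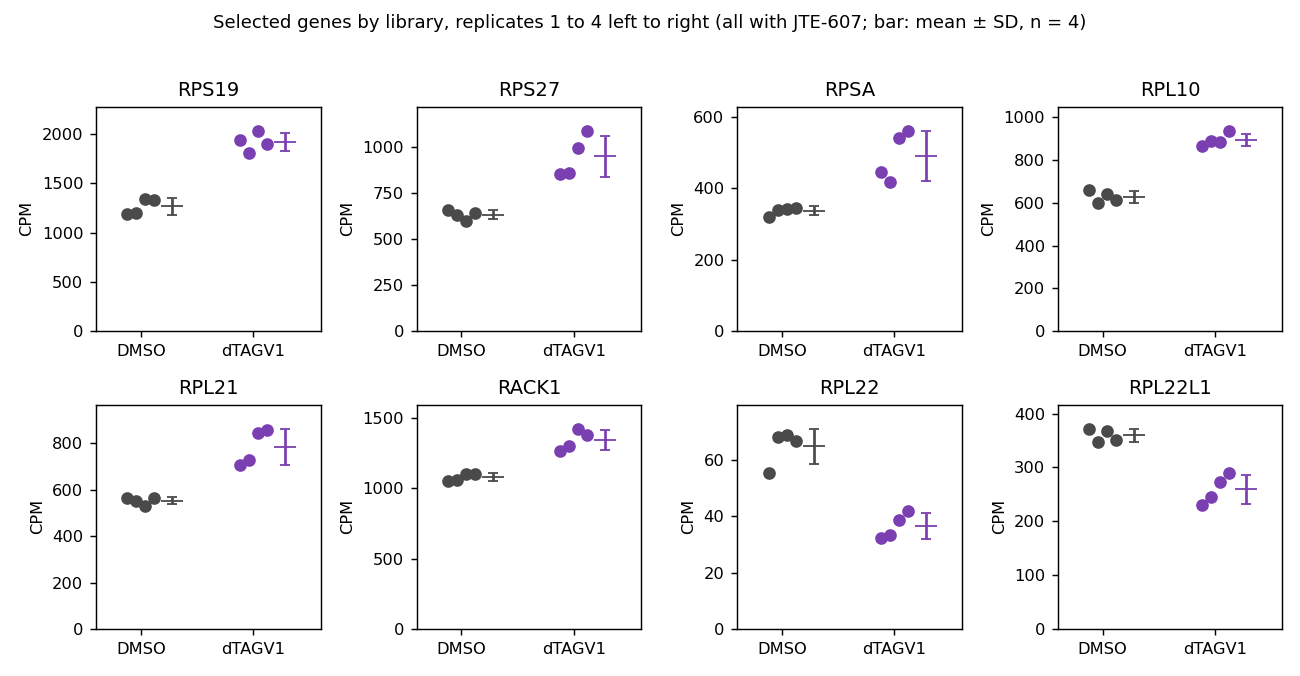
Level (CPM) of 8 genes in each library, replicates 1 to 4 from left to right within a group, with bars of the mean ± SD (n = 4). RPS19, RPS27, RPSA, RPL10, RPL21 and RACK1 are higher in every dTAGV1 library than in every DMSO library, and RPL22 and RPL22L1 are lower.

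Genes of the ribosomal stalk, which recruits the translation factors that use GTP, all rose. That is to be read against the 76.6% of tested ribosomal protein genes and 29.4% of all genes tested that rose. RPLP0, which anchors the stalk, read 1358, 1321, 1499 and 1376 CPM under DMSO and 1772, 1669.9, 1987 and 1775 CPM under dTAGV1 (log2 fold change of 0.38, adjusted p = 4.27e-05, edgeR). RPLP1 read 1483, 1421, 1537 and 1527 CPM against 1875, 1747, 1819.7 and 1610.1 CPM (log2 fold change of 0.24, adjusted p = 0.00284, edgeR). RPLP2, its partner in the stalk dimer, read 1372, 1258, 1322 and 1300.2 CPM against 1708, 1676, 1696 and 1634 CPM (log2 fold change of 0.35, adjusted p = 2.64e-05, edgeR). The DMSO and dTAGV1 libraries were separate in all 3 genes, and the dTAGV1 libraries of RPLP2 were the most alike. RPL12, at the base of the stalk, had a log2 fold change of 0.30 (adjusted p = 0.000390, edgeR).

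RPL5 and RPL11 form a particle with the 5S ribosomal RNA, and when free that particle binds and inhibits MDM2. RPL5 read 1335, 1239, 1277 and 1300.5 CPM under DMSO and 1424, 1479, 1698 and 1779.7 CPM under dTAGV1 (log2 fold change of 0.31, adjusted p = 0.000672, edgeR). RPL11 read 818, 750.3, 799 and 775 CPM against 871, 897, 998 and 1043 CPM (log2 fold change of 0.28, adjusted p = 0.00133, edgeR). Both were separate between groups and highest in dTAGV1 replicates 3 and 4, and with dTAGV1 replicates 1 and 2 alone RPL11 had a log2 fold change of 0.15 and an adjusted p of 0.0517 (edgeR). MDM2 itself rose, with a log2 fold change of 0.55 (adjusted p = 0.000114, edgeR).

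Among RPS6, RPS3 and RPL3, which have known roles in signalling, messenger RNA entry and catalysis, only RPS6 passed the test. RPS6, the 40S protein phosphorylated by the S6 kinases, read 1706, 1682, 1821 and 1792 CPM under DMSO and 2007, 2014, 2290.4 and 2121 CPM under dTAGV1 (log2 fold change of 0.27, adjusted p = 0.00101, edgeR), without overlap. RPS3, at the messenger RNA entry of the 40S, read 1634, 1525, 1746 and 1574 CPM against 1915, 1886, 1910.4 and 1544 CPM. Its last dTAGV1 library fell within the DMSO range, and the gene did not pass the test (log2 fold change of 0.16, adjusted p = 0.0584, edgeR), although without that library it did (0.22, adjusted p = 0.00517). Leaving out DMSO replicate 3 also brought RPS3 past the threshold (0.20, adjusted p = 0.0478, edgeR). RPL3, which reaches towards the peptidyl transferase centre, read 408, 379, 388 and 419 CPM against 401, 390.0, 526 and 521 CPM. Only dTAGV1 replicates 3 and 4 exceeded the DMSO range, and the adjusted p was 0.0510 (log2 fold change of 0.21, edgeR). Without dTAGV1 replicate 1 or replicate 2, RPL3 passed (0.26 and 0.27, adjusted p = 0.0158 and 0.0128, edgeR).

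RPS27A and FAU are made as fusions, the first to ubiquitin and the second to a ubiquitin-like protein, and release a 40S protein when cleaved. RPS27A read 1472, 1444, 1632 and 1494 CPM under DMSO and 1607, 1559, 2017 and 1903 CPM under dTAGV1, with overlapping groups (log2 fold change of 0.23, adjusted p = 0.0129, edgeR). FAU read 859.9, 909.9, 995 and 887 CPM against 1137, 1115, 1053 and 901 CPM, also with overlap (log2 fold change of 0.20, adjusted p = 0.0218, edgeR). These calls depend on single libraries: RPS27A lost its call without DMSO replicate 2, dTAGV1 replicate 3 or dTAGV1 replicate 4, with adjusted p of 0.0511, 0.113 and 0.0530 (edgeR). FAU kept its call only without DMSO replicate 3 or dTAGV1 replicate 4, and its adjusted p was 0.0532 to 0.0819 without any other library (edgeR). Scaled by library size alone, neither gene passed (adjusted p = 0.0794 and 0.125, edgeR). FAU also shares 21.6% of its exon bases with another annotated gene on its strand.

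Other structural groups were described by their counts, beside the 76.6% of tested ribosomal protein genes and 29.4% of all genes tested that rose. Their shares lay near that of the ribosomal protein genes as a whole. Of the 40S head proteins, 11 of 13 tested rose (84.6%) and none fell (median log2 fold change of 0.24). Under library-size scaling alone, 7 were past the threshold. RACK1, a signalling scaffold on the 40S head that is named outside the rule, read 1055, 1061, 1103 and 1103 CPM under DMSO and 1268, 1304, 1425 and 1379 CPM under dTAGV1 (log2 fold change of 0.31, adjusted p = 0.000160, edgeR), without overlap. Of the proteins that line the peptide exit tunnel or its mouth, 6 of 7 tested rose (85.7%), with a median of 0.29. RPL39, a very short protein of that tunnel, read 229.5, 233, 207 and 226 CPM under DMSO and 315, 306, 288 and 286 CPM under dTAGV1 (log2 fold change of 0.42, adjusted p = 1.64e-05, edgeR). All its dTAGV1 libraries were above the DMSO range. Of 17 tested genes mutated in Diamond-Blackfan anaemia, 12 rose (70.6%) and none fell (median 0.25), and 7 passed with library-size scaling alone.

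Genes that did not pass the test included abundant ones. RPL35A read 1056, 1014, 1054 and 1074 CPM under DMSO and 965, 944, 1109.7 and 1142 CPM under dTAGV1, so the first pair of dTAGV1 libraries lay below the DMSO range and the second pair above it (log2 fold change of -0.01, adjusted p = 0.893, edgeR). RPL13A, which hosts 4 small nucleolar RNAs, showed the same split, with 1194, 1194, 1283 and 1206 CPM against 1044, 1051, 1333 and 1314 CPM (log2 fold change of -0.04, adjusted p = 0.677, edgeR). The other genes in this class were RPL3, RPL7A, RPL14, RPL24, RPL35, RPL38, RPS3, RPS7, RPS9, RPS10, RPS14, RPS23, RPS24 and RPS27L. A missed threshold does not show that these genes were unchanged. RPS10, a 40S head protein, was thinly counted at 4.54 to 9.06 CPM and shares 39.4% of its exon bases with another gene on its strand. RPS9, which sits near the messenger RNA entry of the 40S, was also low, at 10.4 to 23.3 CPM, and its groups overlapped (log2 fold change of 0.32, adjusted p = 0.140, edgeR).

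The tissue-restricted or divergent paralogs mostly held no counts. RPL3L, known from striated muscle, RPL10L and RPL39L, known from testis, held 0 counts in every library, which at 3 counts allows up to 0.699 to 0.870 CPM. RPS27L, a paralog of RPS27, read 815, 843, 953 and 939 CPM under DMSO and 1056, 1167, 1000.1 and 828 CPM under dTAGV1. Its groups overlapped and it did not pass the test (log2 fold change of 0.19, adjusted p = 0.0626, edgeR), but it did without dTAGV1 replicate 4 (0.26, adjusted p = 0.00276). RPL17, a protein at the mouth of the exit tunnel, held 5 to 15 counts per library and was not tested. Reads with more than 1 mapped position, 10.4% to 11.5% of mapped reads, have a row of their own in the tables outside the genes. RPL17 also shares 24.8% of its exon bases with another annotated gene on its strand, and counts on pseudogenes named for it were 5696% of its own. The part that any of these plays in the low counts of RPL17 was not tested.

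Near-identical processed copies are a feature of this gene family, and the tables held 1596 pseudogenes named for the 82 genes. Reads assigned to these pseudogenes made up 1.27%, 1.21%, 1.25% and 1.28% of gene-strand counts under DMSO, and 1.4996%, 1.49%, 1.38% and 1.29% under dTAGV1, in replicate order. The groups were separate, but the order of the dTAGV1 libraries was opposite to that of the ribosomal protein genes. Of 123 pseudogenes with enough counts, 57 were called higher (46.3%) and 2 lower (1.63%), with a median log2 fold change of 0.29. Over all genes tested 29.4% were higher and 28.5% lower. The count filter can admit a gene through 1 group alone. RPL7P19 (0.0603 CPM under DMSO and 5.36 CPM under dTAGV1) and RPSAP47 (0.750 and 8.09 CPM) are such cases. The number of pseudogenes called higher therefore depends in part on the filter, and no conclusion is drawn from it. Some copies lay near their parent gene on the log2 scale, such as RPS19P3 (0.54) beside RPS19 (0.60). Others did not, such as RPL13AP25 (0.70) beside RPL13A (-0.04) and RPL7AP6 (-0.15) beside RPL7A (0.20). Adding pseudogene counts to each named gene gave 64 higher and 1 lower of 78 tested, RPL17 then having enough counts. The values of RPS10, RPS3A, RPL15, RPS15 and RPS15A are uncertain, since pseudogene counts amounted to 203%, 178%, 157%, 106% and 102% of their own. With those counts added, RPS15 lost its call (log2 fold change of 0.12, adjusted p = 0.113, edgeR). Among the largest increases they amounted to 85.2% in RPS19, 80.8% in RPS2, 72.3% in RPS27, 63.2% in RPL21, 29.5% in RPL10 and 5.14% in RPSA. With them added, these genes stood at 0.58, 0.40, 0.51, 0.45, 0.50 and 0.58, each still past the threshold.

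Features that the naming rule did not use were set beside the changes. They are to be read against the 76.6% of tested ribosomal protein genes and 29.4% of all genes tested that rose. Of the 28 genes that contain annotated small nucleolar RNAs, 27 were tested, 23 rose (85.2%) and none fell, with a median log2 fold change of 0.33. Of the 50 tested genes that contain none, 36 rose (72%) and 2 fell, with a median of 0.24. Genes with a TOP-like start had 32 increases (68.1%) and 2 decreases among 47 tested (median 0.24). Those with another RefSeq start had 13 increases (81.25%) among 16 tested (median 0.25). Several of the latter, such as RPL10A and RPS28, have a run of C and T just downstream of the annotated base. The split therefore does not cleanly part genes with the motif from genes without it, and no conclusion is drawn from it. Outside the ribosomal protein genes, 645 tested genes had a TOP-like start, of which 28.8% (186) rose and 32.7% (211) fell (median -0.02). All 4 genes on the X chromosome were called: RPL10, RPL39 and RPS4X rose and RPL36A fell. Of the 65 tested genes that share no exon base with another gene on their strand, 51 rose (78.5%) and none fell.

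The translation machinery outside the ribosomal proteins was followed through fixed lists, to be read against the 29.4% of all genes tested that rose and the 28.5% that fell. Of 18 tested messenger RNAs known to carry a TOP motif, 10 rose (55.6%) and 2 fell (11.1%), with a median log2 fold change of 0.25. EIF4A2, a helicase of translation initiation, rose by 0.55, TPT1, an abundant TOP transcript, by 0.44, and the elongation factors EEF2 and EEF1A1 by 0.37 and 0.31, while EIF3K fell by 0.47 and NPM1 by 0.22. Among 24 chaperones and assembly factors of ribosomal proteins, 6 rose (25%) and 7 fell (29.2%), shares close to those of all genes (median -0.08). RIOK3, a kinase tied to the 40S, rose by 0.99, whereas MRTO4 and RRS1, which act in 60S assembly, fell by 0.84 and 0.76, and BYSL, which acts in 40S assembly, fell by 0.59. Of 17 regulators of TOP translation, 3 rose and 3 fell (17.6% each, median -0.01): the cap-binding protein EIF4E fell by 1.08 and RPTOR, the mTORC1 scaffold, by 0.72, while RPS6KB1, an S6 kinase, rose by 0.38 and LARP1 was at -0.12 without passing the test. Of 12 tested quality-control and ubiquitin-marking genes, 4 rose (33.3%) and 2 fell (16.7%), with a median of 0.09, ASCC3 standing at 0.55 and GCN1 at -0.51. The mitochondrial ribosomal proteins, which form a separate ribosome, had 10 increases (14.3%) and 21 decreases (30%) among 70 tested genes (median -0.12). The 6 related genes listed outside the naming rule gave 2 increases and 2 decreases (33.3% each), with the paralog RPL7L1 at -0.30.

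**Figure D5:**
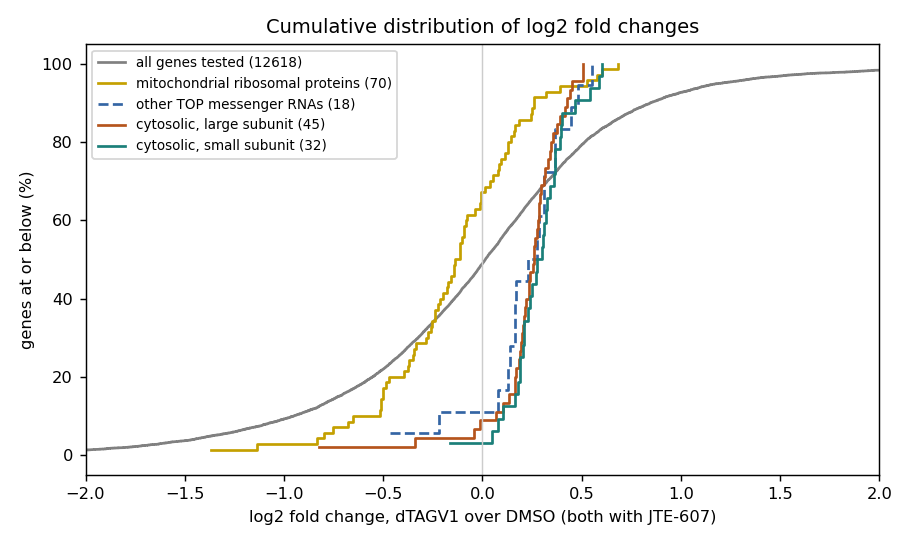
Cumulative share of genes (percent) at or below each log2 fold change (dTAGV1 over DMSO, both with JTE-607) for all genes tested, both subunits of the cytosolic ribosome, mitochondrial ribosomal proteins and other TOP messenger RNAs; gene numbers are in the key. The curves of the small (median 0.29) and large (median 0.26) subunit nearly coincide and are steeper than that of all genes (median 0.01), and that of mitochondrial ribosomal proteins (median -0.12) lies to their left.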

How the data were processed

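The deposited tables hold the authors' counts of reads per gene and were used as deposited. The submitters' processing notes name FastQC, fastp, STAR, HTSeq, DESeq2 and GRCh38, without versions. The annotation and aligner settings are not given in the sources used here. The column for reads on the gene strand was analysed. Rows for unmapped, multimapping, ambiguous or unassigned reads, 56.7% to 62.8% of reads, were left out of library sizes. No columns of other samples were present (0).

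The fit in edgeR 4.0.16 (R 4.3.3) used filterByExpr, TMM factors and robust quasi-likelihood tests on all 8 libraries, with Benjamini-Hochberg adjustment over 12618 genes and a threshold of 0.05. CPM are counts per 1000000 counts on tested genes, with library sizes scaled by TMM factors. They carry no length correction, so levels were not ranked between genes. Separation and overlap of the groups for single genes were read from these CPM and depend on that scaling. Shares of gene-strand counts were not scaled. Standard errors are the log2 fold change divided by the square root of F. The code was tested on simulated data. Positions come from GENCODE 29 (GRCh38), and starts from RefSeq.

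Some genes are counted but not reported here by name. The genes and lists were chosen with earlier results of these data known. Values in every library were given for the 6 largest increases and decreases (adjusted p under 0.05, no overlap of the groups, 10 CPM or more on average) and for a fixed list of genes with known roles. RPS7, RPL13A, RPL35A, RPL18, RPS9, RPS10 and the named pseudogenes were added after their values were seen. Replicate numbers are shared between groups in the labels, but same-numbered libraries deviated together in only 1 of 4 pairs (correlations of 0.131, -0.018, 0.023 and 0.034), so libraries were treated as unpaired. Within groups, libraries differed by more than sampling noise (chi-square per degree of freedom of 1.82 to 5.09). Alternatives were RLE size factors, library size alone, TMM without ribosomal protein genes, other filters, counts irrespective of strand, added pseudogene counts, a replicate block, each library left out, DESeq2 1.42.0 and limma-voom 3.58.1.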

Additional observations from a re-analysis of the deposited data

Results flagged for a closer look

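In 3 of 46 sets of 4 libraries examined, 1 library stood apart from the others of its group by Dixon's criterion, which chance meets in about 1 of 20 groups. RPL22 read 55.5 CPM in DMSO replicate 1, against 66.8 to 68.8 CPM in the other DMSO libraries. RPS3 read 1544 CPM in dTAGV1 replicate 4, against 1886 to 1915 CPM in the other dTAGV1 libraries. The ribosomal protein share of gene-strand counts was 6.84% in DMSO replicate 2, against 7.13% to 7.16% in the other DMSO libraries.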

How the results depend on the processing

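The number of ribosomal protein genes called was 61, 52 to 62 when 1 library was left out and 45 to 65 under the other settings, and 47 of the 59 increases held in all 8 fits that left out 1 library. With a replicate block the number was 63, and 58 of the 59 increases were kept. The median log2 fold change of small-subunit genes was 0.24 to 0.31 and that of large-subunit genes 0.22 to 0.28 when 1 library was left out. With library-size scaling alone the small-subunit median was 0.21 and the large-subunit median 0.185. The small-subunit median was 0.35 without dTAGV1 replicates 1 and 2 and 0.21 without replicates 3 and 4, where the large-subunit median was 0.17. Both of these pairs were set apart after seeing the data. The difference in the ratio of small to large subunit was 0.012 for summed counts, 0.0055 to 0.019 when 1 library was left out, and 0.035 for geometric means. The difference in ribosomal protein share was 0.887 to 1.14 percentage points when 1 library was left out. Calls among regulators of TOP translation numbered 3 irrespective of strand, and calls among pseudogenes 31 at a mean of at least 100 counts. RPL36A turned to 0.029 with pseudogene counts added, since those counts exceed its own. The replicate block brought RPS3 and RPL3 past the threshold (0.16 and 0.19, adjusted p = 0.0372 and 0.0324, edgeR). It changed no other call among the 20 tested genes named by the fixed rule. With the block 61 ribosomal protein genes were higher, so calls outside those 20 genes changed too. Low counts limit RPS10, RPS9 and RPL36A.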
